A study of Mus musculus with 14 samples.

Results

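The genes described are 41 that encode chaperones and heat shock proteins, taken from a list of names and found on the array by the gene name, or an older symbol of it, that the scanner files give each probe. Of 27343 gene names on the array 41 belonged to the list, and each was represented by its probe with the highest mean signal. All 41 were among the 17720 genes kept for testing because their signal stood well above the local background on all arrays of at least 1 replicated group, and 40 of the 41 did so on all 12 replicated arrays, with Hspb1 falling short on wild-type progenitor array 2 alone. By role and place in the cell, 17 are cytosolic HSP90, HSP70 and small heat shock proteins, J proteins and cochaperones, 8 are subunits of the cytosolic chaperonin CCT, 10 work in the endoplasmic reticulum (ER) and 4 in mitochondria. The remaining members are Hsf1, a transcription factor, and Clu, a chaperone that is secreted.

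Chaperones bind newly made or damaged proteins and help them reach or regain their folded shape, mostly by cycles of ATP binding and hydrolysis. Cytosolic HSP70 proteins receive their clients from J proteins and pass some of them to HSP90, while the ring-shaped CCT folds actin and tubulin. The heat shock factor HSF1 drives the stress-inducible genes such as Hspa1a, and the unfolded protein response drives many ER chaperone genes such as Hspa5, which encodes BiP. Developing myeloid cells make large amounts of granule and membrane protein, which pass through the ER.

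Total RNA from 14 samples of mouse blood-forming cells was measured, each on 1 single-colour Agilent array. The Rheb1-/- samples came from mice with floxed Rheb1 alleles and Vav1-cre, a transgene active throughout the blood system. Wild-type mice were the controls, and the labels do not say whether they carried floxed alleles or Cre. Rheb1, official symbol Rheb, encodes the GTPase that activates the kinase complex mTORC1, a promoter of protein synthesis. Myeloid progenitors (GMP in the sample titles) and myeloid cells (M) had 3 wild-type and 3 Rheb1-/- samples each, while 1 sample per genotype stood for the hematopoietic stem cells (HSC). The labels give no age, strain, sort markers or link between a sample and an animal, so the spread between samples may be partly technical.

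Levels below are log2 processed signal minus the 75th percentile of the array, so a level of 0 equals that percentile. On each array 58.5% to 67.6% of spots exceeded the background clearly, and none was saturated. The Rheb level was 3.95, 4.04 and 3.79 in wild-type progenitors and 3.26, 2.66 and 2.60 in Rheb1-/- progenitors, and 3.55, 2.94 and 2.80 against 2.16, 2.10 and 2.36 in myeloid cells, without overlap in either cell type. By limma, Rheb fell by 0.89 in myeloid cells (adjusted p = 0.0115), and the progenitor difference of -1.08 missed the threshold (adjusted p = 0.0945) but passed without Rheb1-/- progenitor array 1 (-1.29, adjusted p = 0.0401). The sources used here do not say whether the Rheb probe falls inside the deleted stretch. Of 10 neutrophil primary granule genes, which mark the progenitor stage, the summed linear signal ranged from 1817 to 2224 in progenitors of either genotype and from 784 to 1754 in myeloid cells. Stem cell markers summed to 142 and 174 on the stem cell arrays, to 50.8 to 80.1 on the progenitor arrays and to 15.3 to 25.9 on the myeloid arrays. Summed signal of 18 monocyte and macrophage markers was 590 to 599 on the wild-type and 517 to 540 on the Rheb1-/- myeloid arrays, with all 18 well above background. The 3 wild-type myeloid arrays lay on 1 slide and the 3 Rheb1-/- myeloid arrays on another. Genotype and slide therefore cannot be told apart in myeloid cells, nor in stem cells. Scan day also differed between the stem cell arrays, and the wild-type one shared its day with wild-type progenitor array 1 only.

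The stretches before the start sites of these genes show what several of the ER chaperones share. An ER stress response element (ERSE), spelled CCAAT, then 9 bases of any kind, then CCACG, was searched in the 250 bases upstream of each RefSeq start site on both strands (build GRCm38.p6). It occurred upstream of 6 of the 34 members with an entry, all 6 among the 10 ER members, and of 0.130% of 27025 genes. The runs holding it are given 5′ to 3′ in the direction of the gene with the fixed letters of the element in capitals.
Hspa5 (chr2:34772005-34772063, + strand): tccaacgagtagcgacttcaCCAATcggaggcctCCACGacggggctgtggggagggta
Pdia6 (chr12:17266471-17266529, + strand): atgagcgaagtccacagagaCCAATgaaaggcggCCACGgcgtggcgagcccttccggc
Calr (chr8:84847055-84847113, - strand): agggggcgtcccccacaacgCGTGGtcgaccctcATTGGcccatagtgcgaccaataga
Canx (chr11:50325780-50325838, - strand): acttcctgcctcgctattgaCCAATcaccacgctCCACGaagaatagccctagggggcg
Dnajc3 (chr14:118937807-118937865, + strand): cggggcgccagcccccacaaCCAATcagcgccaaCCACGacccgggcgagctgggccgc
Hsp90b1, first match (chr10:86705618-86705676, - strand): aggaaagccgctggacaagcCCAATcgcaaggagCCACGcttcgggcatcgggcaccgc
Hsp90b1, second match (chr10:86705513-86705571, - strand): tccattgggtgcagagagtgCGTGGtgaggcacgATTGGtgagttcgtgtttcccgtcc
The match nearest to a start site was that of Hspa5, which ended 46 bases before it, and the farthest was the first of Hsp90b1, 193 bases before it. No match was found upstream of the ER members Dnajb9, Dnajb11, Pdia3 and Pdia4.

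A heat shock element of 3 units, spelled GAA, TTC and GAA with 2 bases of any kind between units, on either strand, occurred upstream of 2 of the 34 members, Hspd1 and Hspe1, and of 0.514% of genes. These 2 genes encode the mitochondrial HSP60 and its partner HSP10. From the nearer listed start of Hspd1 they point away from each other and share 1 stretch of 215 bases between their start sites. A further listed start of Hspd1 lies beyond that of Hspe1, with no match to the element in its 250 upstream bases. The stretch of 215 bases is shown because both genes rose in Rheb1-/- myeloid cells (below). It is written in the direction of Hspe1, with the element's fixed letters in capitals.
Hspd1 and Hspe1 (chr1:55087933-55088147, + strand): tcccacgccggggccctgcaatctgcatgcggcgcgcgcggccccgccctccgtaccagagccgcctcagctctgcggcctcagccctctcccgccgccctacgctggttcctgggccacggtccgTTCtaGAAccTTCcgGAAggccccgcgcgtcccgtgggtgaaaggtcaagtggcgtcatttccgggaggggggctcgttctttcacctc
The matches in this run overlap. No match to this spelling was found upstream of Hspa1a, Hspa1b, Hsph1 or Dnajb1. The upstream stretches of Hspa1a and Hspa1b were identical at 247 of 250 bases. Hsp90aa1, Hsp90ab1, Hspa8, Cct4, Hspa9, Hsf1 and Clu have no promoter run here. Other motifs searched were a second form of the ERSE (ATTGG, 1 base of any kind, CCACG) and the E-box CACGTG. The second form occurred upstream of 0 of the 34 members and 0.037% of genes. The E-box occurred upstream of 4 members, Calr, Dnajb9, Hspd1 and Hsph1, and 6.86% of genes.

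In myeloid progenitors, no chaperone gene passed the test of Rheb1-/- against wild type. By limma with Benjamini-Hochberg adjustment over 17720 genes, 0 of 41 passed at an adjusted p under 0.05, against 0.0734% of all genes, and 0 of 41 reached an unadjusted p under 0.05, against 12.1% of all genes. The difference, Rheb1-/- minus wild type, ranged from -0.29 for Bag3, a cochaperone of HSP70, to 1.06 for Clu, with a median of 0.05 (all genes 0.02). The groups did not overlap for 6 members, Calr, Pdia6, Hsp90ab1, Ahsa1, Hspd1 and Clu, against 20% of all genes. Hspa5 lay at 7.24, 7.12 and 7.28 in wild type and 7.36, 7.14 and 7.15 in Rheb1-/- progenitors, a difference of 0.00 (SE 0.09, 95% interval -0.21 to 0.21). For Tcp1, a CCT subunit, the values were 4.50, 4.78 and 4.63 against 4.75, 4.72 and 4.59. Both genes overlapped between genotypes. On the only slide that held both genotypes, 2 arrays of each, the difference was 0.05 for Hspa5, 0.03 for Tcp1 and 1.02 for Clu. Hspd1 was at 0.22 (SE 0.11, 95% interval -0.02 to 0.47).

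In myeloid cells, 25 of 41 chaperone genes rose in the Rheb1-/- samples and none fell (limma, adjusted p under 0.05). Among all genes 16.4% rose and 17.8% fell, 2902 and 3160 genes, a split that was 3440 and 2634 with quantile scaling. The median difference of the 41 was 0.47 on the log2 scale against -0.09 over all genes, 39 of the 41 were above 0, and 26 had groups that did not overlap, against 50.1% of all genes. By class, 4 of 4 mitochondrial members rose (median 0.67), 7 of 8 CCT subunits (0.44), 7 of 10 ER members (0.48) and 6 of 17 cytosolic HSP90, HSP70, J protein and cochaperone genes (0.31). In such bulk RNA, fewer cells of a type and less RNA per cell cannot be told apart.

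Markers of cell types and stages also differed between the genotypes in myeloid cells. Their counts stand against the 16.4% of all genes that rose and the 17.8% that fell. Of the neutrophil primary granule genes 8 of 10 rose in Rheb1-/- myeloid cells, with Prss57 (1.18) and Ctsg (1.38) of smallest p, and their summed signal was 784 to 941 in wild type and 1283 to 1754 in Rheb1-/-. Of 14 genes of later neutrophil maturation 3 fell and 0 rose, with sums of 3670 to 4023 and 2888 to 3508. Erythroid markers fell at 13 of 15 genes, with sums of 714 to 1156 and 100 to 437, B cell markers at 12 of 15 and monocyte and macrophage markers at 11 of 18, where 2 rose. T and NK cell markers fell at 10 of 16 and rose at 1. Their sum was higher in Rheb1-/-, at 40.6 to 57.8 against 22.3 to 27.9. Nkg7 is on both this list and that of the primary granule genes, and its part in the sum was not tested. On the progenitor arrays the T and NK sum was 153 to 177. Megakaryocyte markers fell at 8 of 14, eosinophil, basophil and mast cell markers at 6 of 17, dendritic cell markers at 5 of 13 and stroma markers at 3 of 10. Plasma cell markers fell at 2 of 8 and rose at 1, and stem cell markers fell at 4 of 15 and rose at 2. The part of these differences in the chaperone levels was not tested.

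**Figure D1:**
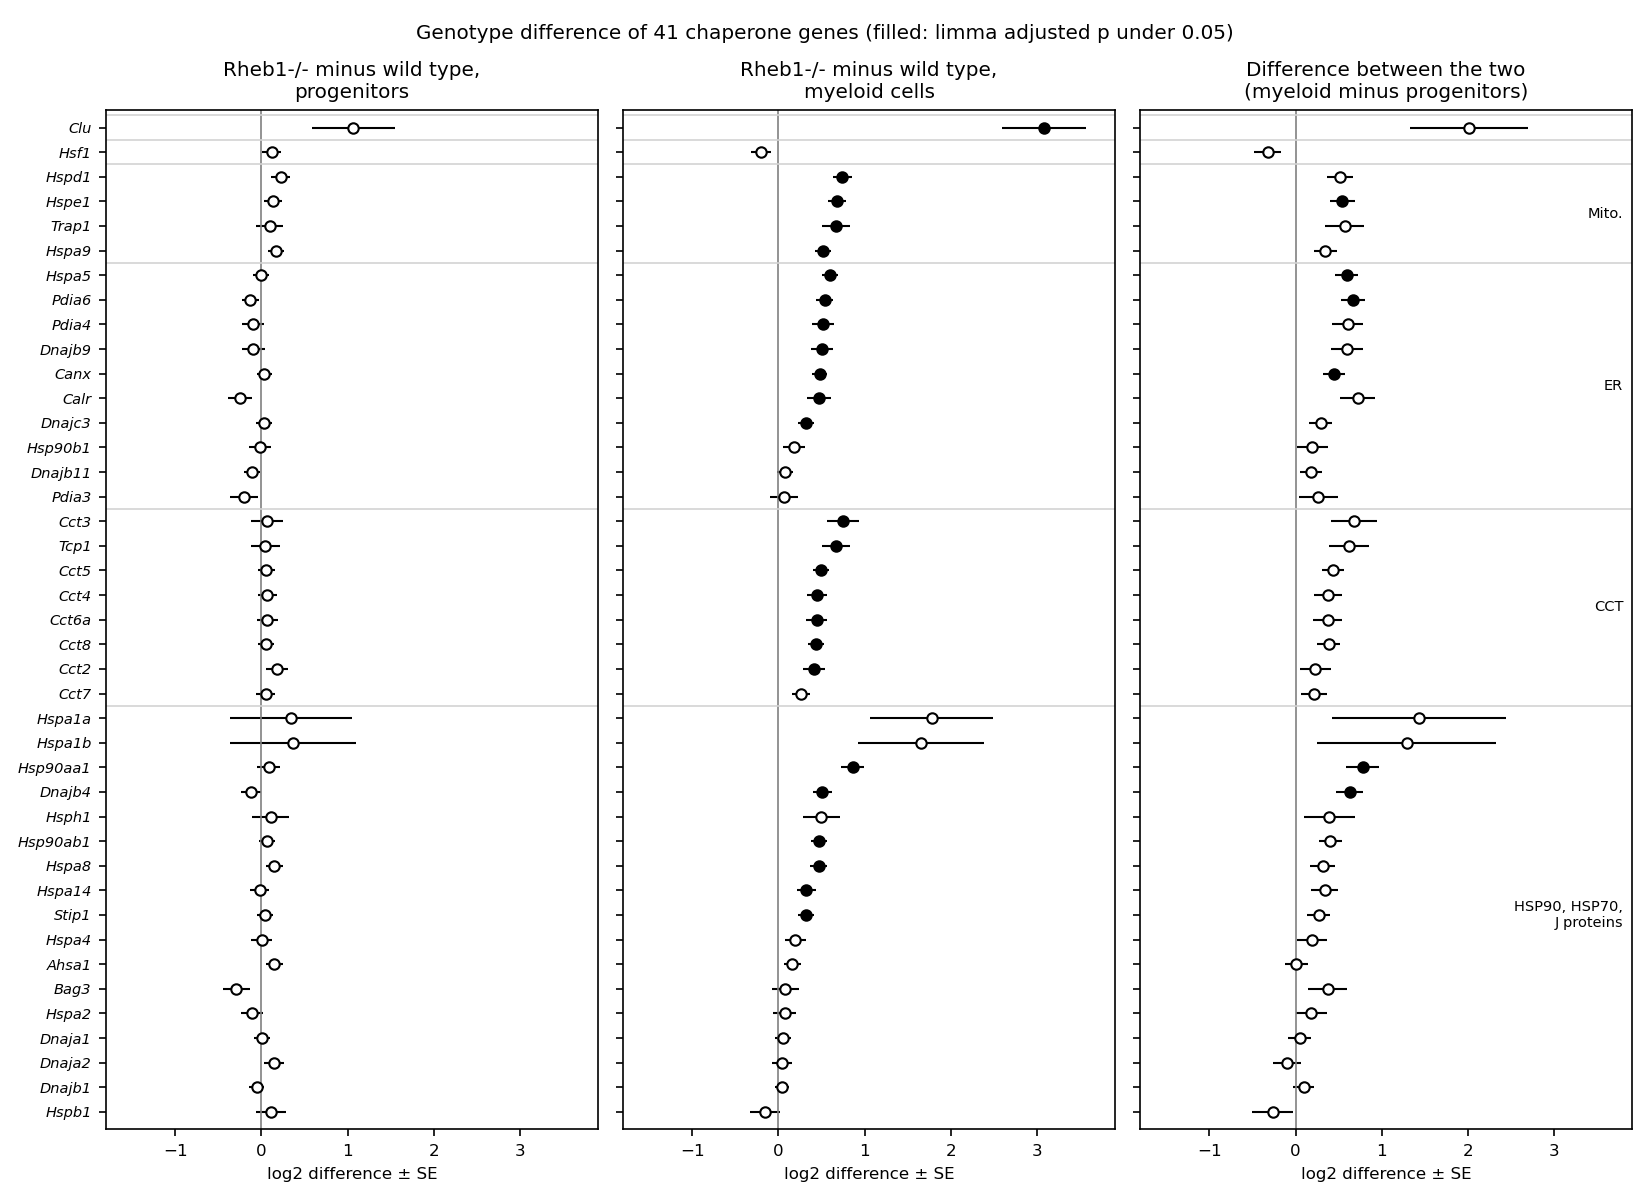
Difference Rheb1-/- minus wild type on the log2 scale for each of the 41 genes with an error bar, in progenitors, in myeloid cells and as the difference between these cell types (n = 3 per group). Filled points passed the adjusted test, which no gene did in progenitors, 25 did in myeloid cells and 6 did for the difference.

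Among the cytosolic genes, Hsp90aa1 differed most of those that passed. It encodes the stress-inducible form of HSP90, and its probe lies at chr12:111929254-111929313 (mm9). Its levels were 4.21, 4.33 and 4.68 in wild-type and 5.05, 5.34 and 5.43 in Rheb1-/- myeloid cells. Every Rheb1-/- array was above every wild-type array, and the difference was 0.86 (SE 0.13, n = 3 and 3, limma adjusted p = 0.00144), a 1.82-fold rise. Dnajb4, a J protein that feeds clients to HSP70, was at -0.86, -0.89 and -0.90 against -0.33, -0.43 and -0.37, a difference of 0.51 (adjusted p = 0.00714). Its other probes gave 0.56, 0.00 and, from a probe well above background on 1 of 12 arrays, -0.15, and over the mean of the probes it was 0.23 (adjusted p = 0.354). Hsp90ab1, the constitutive HSP90, rose by 0.47, and Hspa8, the constitutive HSC70, by 0.47. Hspa14, an HSP70 bound to ribosomes, rose by 0.32, a call that was lost without any 1 of 11 of the 12 arrays (adjusted p up to 0.157), all but Rheb1-/- myeloid array 1. Stip1, which bridges HSP70 and HSP90, rose by 0.31, was at 0.27 without wild-type myeloid array 2 and at 0.24 without Rheb1-/- myeloid array 2, neither past the threshold, and turned to -0.37 over the mean of its 2 probes, the other of which was well above background on 2 of 12 arrays and gave -1.06.

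The other 11 cytosolic members did not pass in myeloid cells. Hsph1, an HSP110 exchange factor, was at 0.50 (adjusted p = 0.0934) and passed only without wild-type myeloid array 3 among the arrays left out (0.78, adjusted p = 0.00455). Hspa4 (0.20), Ahsa1 (0.16), which stimulates the ATPase of HSP90, Bag3 (0.08), Hspa2 (0.07), Dnaja1 (0.05), Dnaja2 (0.04), Dnajb1 (0.04) and the small heat shock gene Hspb1 (-0.16) did not pass either. Of the cytosolic J proteins, then, 1 of 4 passed. The other probe of Dnajb1, at 0.04 by its brightest, gave 0.39.

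The stress-inducible pair Hspa1a and Hspa1b varied widely between replicates. Hspa1a was at 0.82, -0.39 and 0.98 in wild-type and 2.71, 0.80 and 3.23 in Rheb1-/- myeloid cells. Hspa1b was at -2.01, -3.38 and -2.15 against -0.19, -2.49 and 0.11 in the same order. In both genes Rheb1-/- myeloid array 2 lay far below the other two Rheb1-/- arrays and within the wild-type range, so the groups overlapped. The differences were 1.78 (SE 0.71, limma adjusted p = 0.0792) and 1.66 (SE 0.73, adjusted p = 0.106). Without that array they were 2.50 and 2.47 and passed (adjusted p = 0.0214 and 0.0183). Among progenitors, Hspa1a spanned 2.29, 2.92 and 2.85 in wild type and 4.29, 2.89 and 1.91 in Rheb1-/- samples, and Hspa1b spanned -0.72, -0.25 and -0.41 against 1.11, -0.22 and -1.16. The 3 Rheb1-/- progenitor arrays fell in the same order in both genes, with array 1 high and array 3 low. The summed signal of 25 immediate early genes, which respond within minutes to handling and growth factors, was 403, 422 and 297 in wild-type progenitors. On the 3 Rheb1-/- progenitor arrays it was 388, 247 and 217. On the Rheb1-/- progenitor arrays the order of the sums was that of Hspa1a and Hspa1b, and on the wild-type progenitor arrays it was not. On the myeloid arrays, too, the order was that of both genes in Rheb1-/- samples and of neither in wild type. Myeloid arrays gave 607, 708 and 906 in wild type and 939, 860 and 954 in Rheb1-/- for these immediate early genes. Of the 24 tested 7 rose and 0 fell in Rheb1-/- myeloid cells, with Maff (3.28) and Fosl1 (3.08) of smallest p, and their part in the chaperone levels was not tested. The probes of Hspa1a (at chr17:35106766-35106825, mm9) and Hspa1b (at chr17:35094200-35094259) matched each other at no more than 21 of 60 bases in any ungapped alignment, but the match to the other gene's transcript was not checked, so the pair is best read together.

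**Figure D2:**
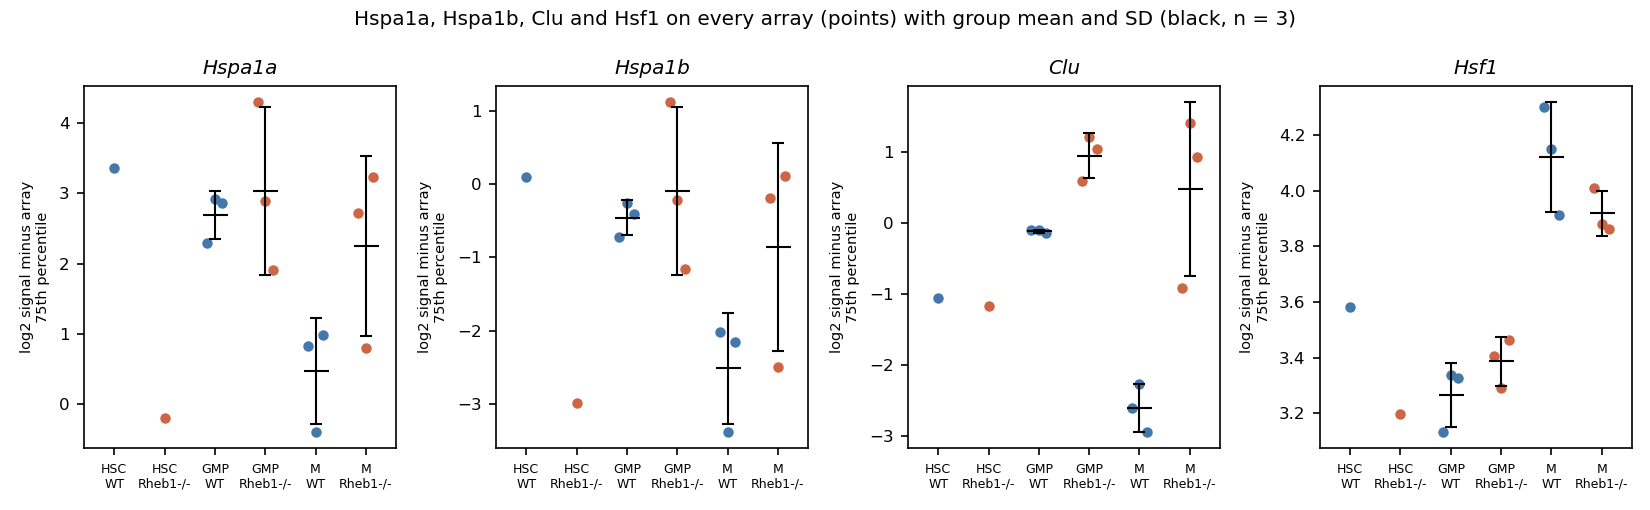
Levels of Hspa1a, Hspa1b, Clu and Hsf1 on every array (log2 signal minus the 75th percentile, points), with the group mean and SD where there are 3 arrays. In Hspa1a and Hspa1b 1 Rheb1-/- myeloid array sits at the wild-type levels, and in Clu 1 Rheb1-/- myeloid array sits below the others and above all wild-type arrays.

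The CCT ring is built of 8 different subunits, and all 8 genes were higher in Rheb1-/- myeloid cells, 7 past the threshold. Cct3 was at -0.28, -0.85 and -1.01 in wild type and -0.09, -0.10 and 0.29 in Rheb1-/-, a difference of 0.75 (limma adjusted p = 0.0123). Tcp1, the alpha subunit, was at 3.00, 2.63 and 2.41 against 3.12, 3.32 and 3.61, a difference of 0.67 (adjusted p = 0.0115). In both subunits every Rheb1-/- array was above every wild-type array. The further probe of Tcp1 gave 0.31. A further probe of Cct3 gave 0.01, and the mean of its probes 0.38 (adjusted p = 0.0857). Cct5 (0.49), Cct4 (0.45), Cct6a (0.44), Cct8 (0.44) and Cct2 (0.41) rose by similar amounts, and Cct7 was at 0.26 (adjusted p = 0.0788). The Cct2 call was lost without myeloid array 2 or 3 of either genotype (0.33 to 0.41). The Cct6a call was lost without wild-type myeloid array 2 or 3 or Rheb1-/- myeloid array 3 (0.35 to 0.43).

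In the ER, Hspa5 (probe at chr2:34631630-34631689, mm9), the HSP70 of that compartment and regulator of the stress sensors, was at 5.07, 5.09 and 5.18 in wild-type and 5.70, 5.59 and 5.83 in Rheb1-/- myeloid cells. The groups were apart by more than their own widths, and the difference was 0.60 (SE 0.09, limma adjusted p = 0.00154), a 1.51-fold rise. Pdia6, a disulfide isomerase, was at 4.27, 4.32 and 4.41 against 4.65, 4.97 and 4.99 and rose by 0.54 (adjusted p = 0.00307). Pdia4, another isomerase, was at -1.34, -1.17 and -1.13 against -0.79, -0.49 and -0.82 and rose by 0.51 (adjusted p = 0.0123). Canx, the membrane-bound lectin chaperone calnexin, was at 3.87, 4.06 and 3.82 against 4.32, 4.38 and 4.49 and rose by 0.48 (adjusted p = 0.00315). The groups did not overlap in any of these genes. The other probes of Pdia6 gave 0.52, 0.05 and 0.61. Dnajb9, a J protein that restrains the sensor IRE1, rose by 0.50, Calr, the soluble lectin chaperone, by 0.47 and Dnajc3, an ER J protein, by 0.32. The Calr call was lost without any 1 of 5 myeloid arrays (adjusted p up to 0.0958), all but Rheb1-/- array 3, and the Dnajc3 call without wild-type myeloid array 1 or 3 or Rheb1-/- myeloid array 2 or 3 (adjusted p up to 0.0841). Hsp90b1 (0.18), the HSP90 of the ER, Dnajb11 (0.07) and Pdia3 (0.06) did not pass. Of the 6 genes with an ERSE printed above 5 passed, all but Hsp90b1, and of the 4 without it 2 passed, Dnajb9 and Pdia4.

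The mitochondrial members form the folding line of the matrix, where Hspa9 helps to pull in proteins, the HSP60 and HSP10 chamber folds them and Trap1 is the HSP90 of that compartment. Hspd1 (probe at chr1:55134829-55134888, mm9) was at 3.65, 3.82 and 3.60 in wild-type and 4.34, 4.31 and 4.64 in Rheb1-/- myeloid cells. Hspe1, its neighbour on the shared promoter above, was at 2.55, 2.75 and 2.58 against 3.12, 3.38 and 3.41. The 2 genes thus differed by 0.74 (SE 0.11, limma adjusted p = 0.00108) and 0.68 (SE 0.10, adjusted p = 0.00117), with every Rheb1-/- array above every wild-type array. Trap1 was at 0.11, -0.20 and -0.48 against 0.39, 0.63 and 0.42 and rose by 0.67 (adjusted p = 0.0104). Hspa9 was at 2.00, 1.93 and 1.94 against 2.39, 2.44 and 2.59 and rose by 0.52 (adjusted p = 0.00249), and the groups overlapped in neither. All 4 calls held under all 21 other settings tried.

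Clu, which encodes the secreted chaperone clusterin, had the largest difference of the 41. Its probe lies at chr14:66600151-66600210 (mm9), and its levels were -2.61, -2.26 and -2.94 in wild-type and -0.91, 1.40 and 0.93 in Rheb1-/- myeloid cells. The difference was 3.08 (SE 0.48, limma adjusted p = 0.00146), an 8.44-fold rise, with Rheb1-/- array 1 far below the other two. In progenitors Clu was at -0.11, -0.10 and -0.15 in wild type and 0.59, 1.20 and 1.04 in Rheb1-/- samples, again without overlap, but the difference of 1.06 did not pass (adjusted p = 0.416). Hsf1 was at 4.30, 4.15 and 3.91 in wild-type and 4.01, 3.88 and 3.86 in Rheb1-/- myeloid cells, a difference of -0.20 that did not pass (adjusted p = 0.184). In progenitors it was at 3.13, 3.34 and 3.33 against 3.41, 3.29 and 3.47. The Hsf1 groups overlapped in progenitors and in myeloid cells. By its other probes the myeloid difference of Hsf1 was 0.16 and 0.15.

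Whether loss of Rheb1 acted differently in the 2 cell types was tested as the difference of the genotype differences, myeloid cells minus progenitors. Of the 41 members 6 were positive past the threshold and 0 negative, against 5.44% and 5.36% of all genes (964 and 950, or 1371 and 787 with quantile scaling), and 19 reached an unadjusted p under 0.05, against 30.6% of all genes. The 6 were Hsp90aa1 (0.78, limma adjusted p = 0.0321), Pdia6 (0.66, adjusted p = 0.0202), Dnajb4 (0.63, adjusted p = 0.0354), Hspa5 (0.60, adjusted p = 0.0245), Hspe1 (0.54, adjusted p = 0.0408) and Canx (0.45, adjusted p = 0.0487). The 3 ER genes among them, Pdia6, Hspa5 and Canx, had genotype differences of -0.13, 0.00 and 0.03 in progenitors. Pdia6 was at 6.56, 6.49 and 6.50 in wild-type and 6.32, 6.42 and 6.42 in Rheb1-/- progenitors. Canx was at 5.61, 5.56 and 5.69 against 5.65, 5.59 and 5.72 there, and Hsp90aa1 at 6.51, 6.61 and 6.63 against 6.61, 6.76 and 6.64. Of these, Pdia6 was lower on every Rheb1-/- progenitor array than on any wild-type array, and the others overlapped. Dnajb4 was at 1.30, 1.07 and 1.34 against 1.33, 0.92 and 1.10 in progenitors. Hspe1 was at 4.75, 4.82 and 4.77 against 4.80, 4.92 and 5.03 there. For Hspd1 the progenitor values were 6.31, 6.42 and 6.28 against 6.53, 6.68 and 6.47, and its difference of differences, 0.52, did not pass (adjusted p = 0.0578). Calr, at 0.72, lay just outside the threshold of 0.05. These calls lie near the threshold, and the count was 1 without wild-type progenitor array 1, Rheb1-/- progenitor array 2 or Rheb1-/- progenitor array 3, 2 without wild-type progenitor array 3, Rheb1-/- progenitor array 1 or Rheb1-/- myeloid array 3, and 3 without wild-type myeloid array 2 or 3 or Rheb1-/- myeloid array 2. Without a filter on dim genes it was 0, over the mean of its probes Dnajb4 was at 0.14 (adjusted p = 0.753), and no member held under all 21 other settings.

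Between the cell types, chaperone genes were lower in myeloid cells than in progenitors, in both genotypes. In wild type 39 of 41 fell and 1 rose (limma, adjusted p under 0.05), where 38.9% of all genes fell and 38.8% rose, and 40 had groups that did not overlap, against 80% of all genes. The median difference was -1.56, against 0.05 over all genes, with class medians of -2.55 for the mitochondrial members, -1.63 for the ER, -1.52 for CCT and -1.19 for the cytosolic HSP90, HSP70 and J group. In Rheb1-/- samples 35 fell and 1 rose, where 39% of all genes fell and 29.5% rose, 36 did not overlap, against 73.2%, and the median was -1.21, against -0.10 over all genes. These comparisons use the same arrays as the genotype comparisons above, so their values stand side by side and no agreement between them was tested. In wild type no slide held both cell types, so cell type and slide cannot be told apart there. In Rheb1-/- samples progenitor array 3 shared the slide of the myeloid arrays, and with slide as a fixed block over all 14 arrays 34 members fell and 1 rose. Markers of other stages and cell types moved with this comparison. In wild type all 14 genes of neutrophil maturation were higher in myeloid cells, 8 of 10 primary granule genes were lower, and erythroid and B cell markers were higher at 9 and 13 of 15 each. Erythroid sums were 10.3 to 20.9 in wild-type progenitors and 714 to 1156 in wild-type myeloid cells, against 5.32 to 16.5 and 100 to 437 in Rheb1-/- samples. Their part in the chaperone levels was not tested.

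By its brightest probe Cct3 fell by 2.78 in wild type (limma adjusted p = 3.08e-07), while its other probe gave -0.54 and the mean of both -1.66. Calr fell by 2.75. In Rheb1-/- samples the brightest probe of Cct3 and Calr were at -2.10 and -2.03. The mitochondrial Hspd1, Hspa9, Trap1 and Hspe1 fell by 2.65, 2.55, 2.55 and 2.16 in wild type. In Rheb1-/- samples they fell by 2.13, 2.21, 1.98 and 1.62. Hspa5 was 4.30-fold lower in wild-type myeloid cells than in progenitors and 2.85-fold lower in Rheb1-/- myeloid cells, and Hsp90aa1 was 4.52-fold and 2.64-fold lower. Dnajb9 fell by 0.49 in wild type and was at 0.10 in Rheb1-/- samples, where it did not pass. Clu fell by 2.49 in wild type and was at -0.47 in Rheb1-/- samples without passing. Hspa1a and Hspa1b fell by 2.22 and 2.05 in wild type and were at -0.78 and -0.77 in Rheb1-/- samples without passing. Neither wild-type call held without wild-type myeloid array 2, where they were -1.78 and -1.62, and that of Hspa1b was also lost without wild-type progenitor array 2 (-1.95) or 3 (-2.03).

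The member that rose in myeloid cells was Hsf1, by 0.85 in wild type and 0.53 in Rheb1-/- samples. This direction belongs to its brightest probe alone, since its other probes gave -1.26 and -1.20 in wild type and the mean of its probes -0.54 in wild type and -0.58 in Rheb1-/- samples. Hspb1 was at 0.35 in wild type and passed only without wild-type myeloid array 1 among the arrays left out (0.46, adjusted p = 0.0465). Dnajb1 fell by 0.35 in wild type and by 0.26 in Rheb1-/- samples, the second of which was lost without Rheb1-/- progenitor array 1 or 3 or Rheb1-/- myeloid array 2 or 3 (-0.22 to -0.26).

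**Figure D3:**
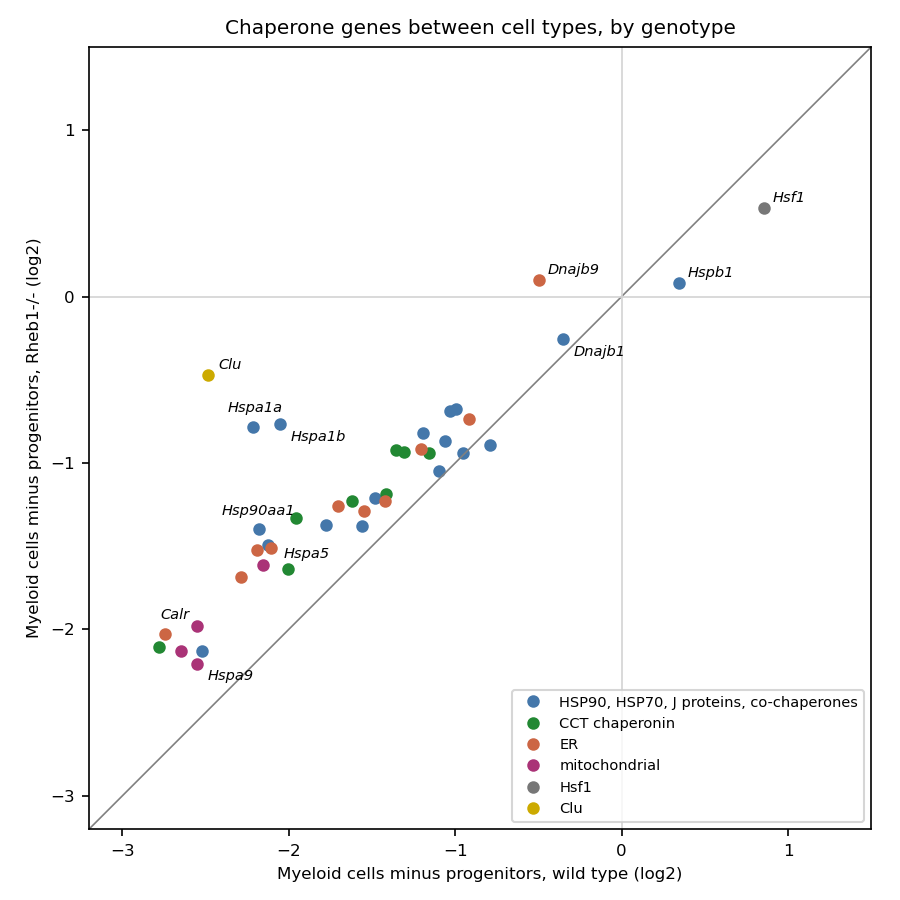
Difference myeloid cells minus progenitors for each of the 41 genes on the log2 scale, in wild type (horizontal) and in Rheb1-/- samples (vertical), with the line of equal values and colours for the classes. Most points lie below 0 on both axes and above the line, and Hsf1 lies above 0 on both.

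The stem cell arrays, 1 per genotype, on different slides and scanned on different days, allow a description and no test. On them 3 of 41 members were more than 2-fold lower in the Rheb1-/- sample. Among the 16656 genes well above background on both arrays 6.28% were, a similar share. No member (0 of 41) was more than 2-fold higher, against 5.33% of those genes. Hspa1a was at 3.36 in the wild-type and -0.20 in the Rheb1-/- sample, 11.7-fold lower. Hspa1b was at 0.09 against -2.99, 8.47-fold lower, and Hspb1 at -3.12 against -4.68, 2.95-fold lower. Hspb1 is dim, with a mean of -5.06 in wild-type progenitors. In Hspa1a and Hspa1b the Rheb1-/- stem cell level was below every progenitor array and within the range of the wild-type myeloid arrays. The wild-type stem cell level was above every wild-type progenitor array and below Rheb1-/- progenitor array 1 (4.29 and 1.11). Hspa5 was at 6.0 against 5.94, Hspd1 at 5.58 against 5.78, and Tcp1 at 3.73 against 3.94. Clu was at -1.06 against -1.17, and Hsf1 at 3.58 against 3.20. Over the 41 genes 22 were higher in the Rheb1-/- sample and the median difference was 0.02, against 0.13 over all genes. The same 2 arrays differed in other ways, with summed immediate early signal of 752 in wild type and 360 in Rheb1-/-, B cell markers of 313 and 119, eosinophil, basophil and mast cell markers of 327 and 42.1, plasma cell markers of 125 and 10.1 and monocyte and macrophage markers of 376 and 99.5. The part of these in the chaperone values was not tested.

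**Figure D4:**
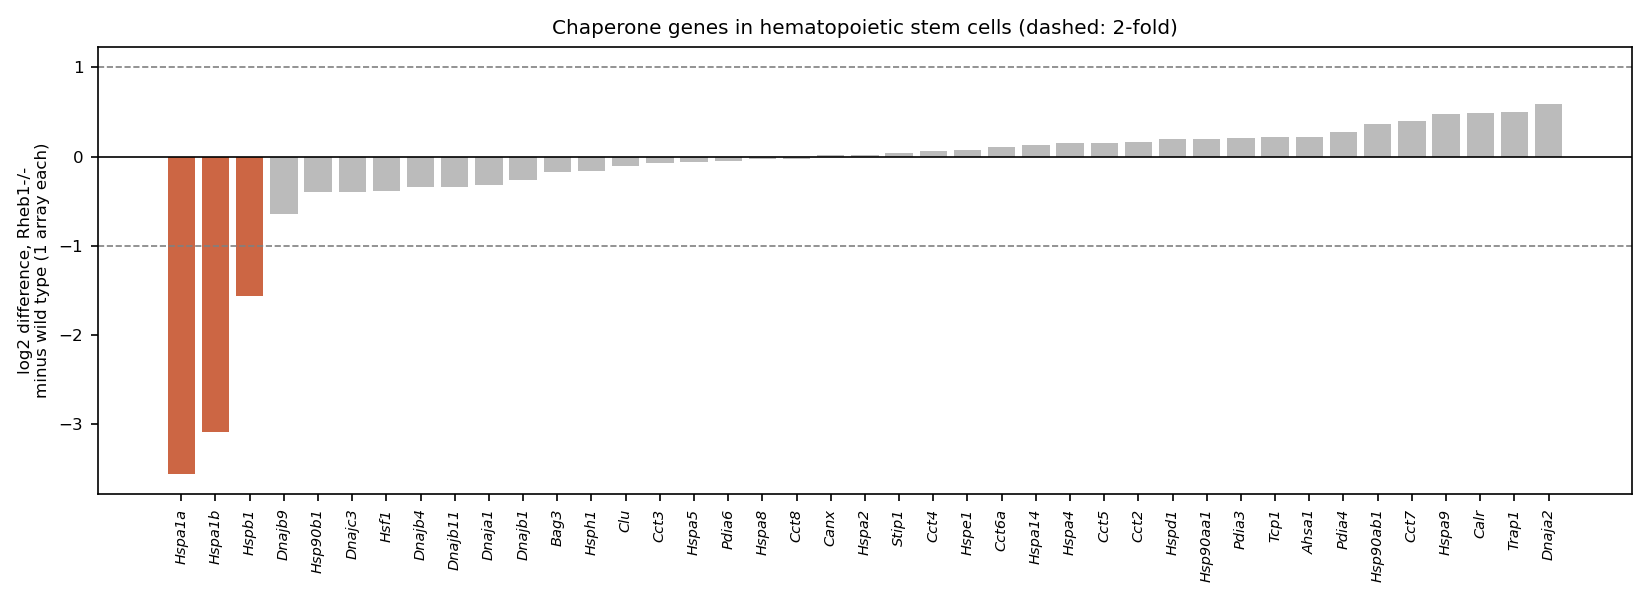
Difference Rheb1-/- minus wild type between the 2 stem cell arrays for each of the 41 genes (log2), with dashed lines at a 2-fold difference. Hspa1a, Hspa1b and Hspb1 lie past the lower line, and no gene lies past the upper one.

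Other genes of protein folding were counted from lists that hold none of the 41, and their counts in myeloid cells stand against the 16.4% of all genes that rose and the 17.8% that fell. In Rheb1-/- myeloid cells 18 of 33 further ER folding genes rose and 1 fell (median 0.34), among them Sil1, the exchange factor of BiP, at 0.77, the cargo receptor Lman1 at 0.77 and the isomerase Fkbp11 at 2.21, which is also a plasma cell marker, while the disulfide isomerase Txndc5 fell by 0.47. Of 22 further mitochondrial proteostasis genes 9 rose and 0 fell (median 0.23), with the protease subunit Clpp at 0.61, the protease Htra2 at 0.60 and the import receptor Tomm20 at 0.72. Of 39 genes on a list of other cytosolic chaperones and cochaperones 10 rose and 7 fell (median 0.00). The role and place in the cell of each gene on this list were not checked. Those named run from Hspb11 (0.75), Fkbp4 (0.74) and Ppid (0.64) to Dnajb14 (-0.66), Hspa12a (-2.25) and Dnaja4 (-2.79). Of these, Fkbp4 and Ppid partner HSP90. Hsf2 (-0.43) and Hsbp1 (-0.17), relatives and regulators of Hsf1, did not pass.

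Of 26 unfolded protein response genes 4 were higher and 4 lower in Rheb1-/- myeloid cells (median -0.02), shares close to those of all genes. Atf4 (0.63), Ppp1r15a (1.03), which recruits the phosphatase of eIF2α, and the sensor Ern1 (0.43) rose, and the ATF4 target Chac1 (-0.85) and the sensor Eif2ak3 (-0.47) fell. Prefoldin and tubulin cofactors, which hand clients to CCT or act on tubulin after it, rose at 2 of 16 (Pfdn5, 0.34, and Uri1, 0.56) and fell at 1 (Tbcc, -0.25), which is no more than the share of all genes. In progenitors 0 genes of these 6 lists passed. For the difference between the cell types, where 5.44% of all genes were positive and 5.36% negative, 10 of 33 ER folding genes were positive, among them Sil1 (0.86), Sdf2l1 (0.76) and Fkbp11 (1.61), and 1 of 22 mitochondrial genes (Clpp, 0.53). There 5 of the 39 genes of the cytosolic list were positive and 4 negative. Atf4 (0.99) and Ppp1r15a (1.32) were positive and Chac1 (-1.43) negative. Between the cell types in wild type 38.9% of all genes fell and 38.8% rose. There 30 of 33 ER folding genes and 21 of 22 mitochondrial genes were lower in myeloid cells. On the cytosolic list 17 of 39 genes were lower and 10 higher.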

How the data were processed

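Per the labels' protocols, total RNA of 14 samples was amplified, labelled with Cy3 and put on Agilent arrays of 1 colour. The intensity used is the scanner's processed signal, already background-subtracted, and raw and local background intensities served an alternative, per the file headers. The headers name Feature Extraction 10.7.3.1 and the submitters' processing notes 9.1. The table of values that the authors deposited is in log2 and covers 41265 probes, and its sorted columns differed by at most 0.00234, with medians of 5.92 and correlations with the log2 intensity of 0.998 to 1.00, so it was scaled between arrays by the authors. How it treated background is not stated in the sources used.

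Of 45018 spots per array, 1639 controls and 79 to 195 outlier spots were dropped, and spots of a probe averaged (41174 probes). Names came from a RefSeq table (GRCm38.p6) by accession (27668 probes), symbol (5589) or older symbol (471), and 7446 kept the file's name. The brightest probe stood for a gene, and members have 36 further probes. A gene entered the tests if its probe was well above background throughout 1 replicated group or more (17720 genes). Values in log2, scaled to the 75th percentile of their array, were fitted with 1 mean per group over 12 arrays in limma 3.58.1 (with R 4.3.3, statmod 1.5.0 and data.table at version 1.17.8, 8 residual and 1.95 prior degrees of freedom), two-sided, and genes passed at an adjusted p (Benjamini-Hochberg, per contrast) under 0.05. The number of arrays limits the precision (median residual SD 0.182). Tested on simulated data with 17720 genes, 68% of changes of 1 and 86% of changes of 2 in log2 were found in the progenitor contrast, and 67% and 87% in the myeloid contrast, with 9 and 11 false calls. Smaller changes, such as those of most members, and slide effects were not simulated.

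The members and the lists (6 of pathways, 12 of cell type markers, 1 of immediate early genes) were chosen with earlier results of these data known. Named with values on every array were members passing a genotype contrast, at most the 12 of largest size each way, and Hspa5, Hspa1a, Hspa1b, Hspd1, Tcp1, Hsf1 and Clu, and from each pathway list up to 3 passing genes each way by smallest p. A gene that this rule takes is not reported here. Summed signal is the sum of linear signals relative to the 75th percentile. Promoters are RefSeq's (32851 start sites, 34 of 41 members matched), searched on both strands. Probe positions are the files', in mm9. Alternatives were normexp (offset 50), quantile scaling, the deposited table, averaging all probes of a gene, no filter, a filter on all 12 arrays, a block for replicate number, a block for slide, slide 3 alone, and each array left out. Omitting 2 progenitor arrays at once (the first of wild type, number 3 of Rheb1-/-) was added after seeing the data. Replicate numbers do not pair samples by the labels, and deviations of same-numbered samples correlated at -0.15 to 0.13.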

Additional observations from a re-analysis of the deposited data

Results flagged for a closer look

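For 6 chaperone genes the genotype difference was larger in myeloid cells than in progenitors by the test of the difference between them (limma, adjusted over 17720 genes). They are Hsp90aa1 (0.78), Pdia6 (0.66), Dnajb4 (0.63), Hspa5 (0.60), Hspe1 (0.54) and Canx (0.45), each on the log2 scale with 3 arrays in each of 4 groups. Wild-type and Rheb1-/- myeloid arrays lay on separate slides, so slide and genotype cannot be told apart in these values. None of the 6 passed under every alternative, as given below, and Pdia6 missed under 3 of 21, the fewest of the 6.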

How the results depend on the processing

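Of the 25 chaperone genes called in Rheb1-/- myeloid cells 17 passed under all 21 alternatives, the count ran from 20 to 28, and 20 to 24 were called with 1 array left out. In progenitors the count was 0 under all 23 alternatives. For the difference between cell types the 6 positive calls became 10 with quantile scaling, 0 without a filter, 11 with the filter on all 12 arrays, 11 with slide as a random block, 0 without both wild-type progenitor array 1 and array 3 of the Rheb1-/- progenitors, and 1 to 8 with 1 array left out. Leaving out 1 array brought 9 other members past the threshold there, each with 1 array only. The random slide block had a negative estimated correlation between arrays of a slide (-0.119). It cannot separate slide from genotype in myeloid cells, and the fixed slide block gave no estimate there or for the difference. Falls between cell types numbered 37 to 39 in wild type and 34 to 35 in Rheb1-/- samples with 1 array left out. The single rise, Hsf1, was lost when all probes of a gene were averaged (0 in wild type and 0 in Rheb1-/-), where Hsf1 was at -0.54 and -0.58 and Stip1 in myeloid cells at -0.37, and the rises in wild type numbered 2 with slide as a random block and 1 to 2 with 1 array left out. With the replicate block 24 members were called in myeloid cells and 5 for the difference, and replicate numbers share no stated source. Over all genes, 13 were called in progenitors (0 to 81 under alternatives) and 1914 for the difference (571 to 2624). The split of rises and falls in myeloid cells was 2902 and 3160, but 3440 and 2634 with quantile scaling and 3434 and 2626 in the deposited table, and for the difference 964 and 950, 1371 and 787, and 1369 and 777. The causes of these changes were not tested. Of 4531 single-gene values under alternatives 4372 kept their direction and side of the threshold, 117 lost a call, 39 gained one and 3 turned.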
